A study of Homo sapiens with 12 samples.

Results

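The 45 genes described here carry glucose into the cell, break it down to pyruvate and lactate, divert it into the pentose phosphate pathway, or respond to low oxygen. They were listed by gene symbol according to the role of the protein. The listing used no threshold on their values, but was made with earlier results of these data known. Of the 45, 41 had a probe set named for that gene alone, and 39 passed the filter on low signal, out of 12774 genes that passed among 17687 with a named probe set. All 39 lay above the filter level on each of the 12 arrays, so none was admitted through a single group. ENO2, the neuronal form of enolase, lay above it on 0 of 12 arrays, and EGLN3, an oxygen-sensing hydroxylase, on 3 of 12, and both were left out of the tests. SLC16A1, SLC16A3, PFKFB4 and CA9 were not analysed here, since no probe set carried their name alone.

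The samples were 12 cultures of MCF-10A, an established, non-tumorigenic human breast epithelial cell line, measured on whole-transcript arrays. Of these, 4 were of an isogenic line with HER2 L755S, a change in the receptor's kinase domain. Another 4 were of an isogenic line with PIK3CA E545K, a change in the catalytic subunit of PI3K, a lipid kinase. The remaining 4 were co-cultures of both lines, of which about 75% were HER2-mutant cells by droplet digital PCR at harvest. The cultures grew for 7 to 14 days with a physiologic amount of EGF and no added treatment, and the day of each array was not given. In the labels, each mutation is carried by 1 line, and unmutated MCF-10A was not analysed here. A gene higher in HER2-mutant than in PIK3CA-mutant cultures may thus have risen in the former or fallen in the latter. ERBB2 and PIK3CA had no probe set in use, so the genotypes were not checked. The labels call the cultures quadruplicate without saying whether they were started separately, and the p-values measure only the spread between these cultures.

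Glucose enters cells through transporters of the SLC2A family, is trapped as glucose phosphate by hexokinase, and is split and oxidised to pyruvate by the enzymes of glycolysis. Lactate dehydrogenase turns pyruvate into lactate, whereas pyruvate dehydrogenase feeds it to mitochondria unless a pyruvate dehydrogenase kinase (PDK) blocks it. The hypoxia-inducible factors raise many of these genes when oxygen is low, and PI3K signalling and MYC are known to raise glucose uptake and glycolysis in epithelial cells.

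Hypoxia-inducible factors bind a short core, ACGTG or GCGTG, and MYC and the glucose-sensing factor MondoA bind the E-box CACGTG or relatives of it. The 250 bases before the most upstream start in RefSeq (GRCh38.p14) are given for 7 members, 5′ to 3′ on the strand of the gene. They show how the promoters of some members that moved differ in these letters. All but LDHA were taken by size of difference in each direction, leaving out members near background as defined below. LDHA was added by choice, although P4HA1 differed slightly more (-1.31 against -1.29) and is not shown. LDHA, ALDOC, PGD and PGAM1 were lower in the HER2-mutant than in the PIK3CA-mutant line, and HK2, ADM and PDK2 were higher. Capitals mark matches to ACGTG or GCGTG on either strand, so a reverse match reads CACGT or CACGC.
LDHA (chr11:18394313-18394562, plus strand): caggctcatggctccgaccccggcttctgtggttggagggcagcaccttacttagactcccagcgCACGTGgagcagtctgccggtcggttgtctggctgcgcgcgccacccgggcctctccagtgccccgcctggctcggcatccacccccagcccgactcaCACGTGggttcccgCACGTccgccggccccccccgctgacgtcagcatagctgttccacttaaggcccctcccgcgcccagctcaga
ALDOC (chr17:28576896-28577145, minus strand): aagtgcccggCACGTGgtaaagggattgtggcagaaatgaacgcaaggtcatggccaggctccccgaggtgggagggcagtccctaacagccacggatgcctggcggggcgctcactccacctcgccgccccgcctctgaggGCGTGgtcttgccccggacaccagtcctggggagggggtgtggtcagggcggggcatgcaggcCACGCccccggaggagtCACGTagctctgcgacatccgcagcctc
PGD (chr1:10398814-10399063, plus strand): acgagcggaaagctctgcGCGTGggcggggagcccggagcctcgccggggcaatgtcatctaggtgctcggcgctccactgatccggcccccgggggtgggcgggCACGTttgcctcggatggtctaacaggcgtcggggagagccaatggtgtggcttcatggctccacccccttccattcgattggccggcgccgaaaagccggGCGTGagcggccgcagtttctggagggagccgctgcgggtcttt
PGAM1 (chr10:97427568-97427817, plus strand): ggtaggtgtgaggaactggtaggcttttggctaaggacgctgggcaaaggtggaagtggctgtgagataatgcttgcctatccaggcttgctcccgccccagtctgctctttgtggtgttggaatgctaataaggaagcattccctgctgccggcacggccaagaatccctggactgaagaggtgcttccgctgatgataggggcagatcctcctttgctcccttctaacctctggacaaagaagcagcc
HK2 (chr2:74833877-74834126, plus strand): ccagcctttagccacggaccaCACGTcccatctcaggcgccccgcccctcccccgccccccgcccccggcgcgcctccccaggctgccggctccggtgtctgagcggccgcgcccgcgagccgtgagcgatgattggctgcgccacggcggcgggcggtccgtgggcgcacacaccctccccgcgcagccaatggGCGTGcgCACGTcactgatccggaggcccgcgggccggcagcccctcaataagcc
ADM (chr11:10304823-10305072, plus strand): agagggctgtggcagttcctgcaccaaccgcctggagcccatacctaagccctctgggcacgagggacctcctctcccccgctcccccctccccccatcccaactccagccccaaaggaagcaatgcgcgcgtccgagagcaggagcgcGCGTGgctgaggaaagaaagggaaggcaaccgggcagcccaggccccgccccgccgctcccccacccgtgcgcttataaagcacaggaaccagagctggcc
PDK2 (chr17:50094487-50094736, plus strand): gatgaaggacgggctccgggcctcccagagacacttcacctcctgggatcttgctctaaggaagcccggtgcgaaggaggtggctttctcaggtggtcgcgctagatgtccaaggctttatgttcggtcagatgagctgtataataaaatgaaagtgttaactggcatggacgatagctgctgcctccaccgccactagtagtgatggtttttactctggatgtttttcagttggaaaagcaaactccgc
An E-box CACGTG holds the core on both strands and was counted as a pair of matches. The LDHA window held 5 matches, 4 of them in 2 E-boxes, and the ALDOC window held 5, with 1 E-box. The HK2 and PGD windows held 3 each, and the ADM window held 1. The PGAM1 and PDK2 windows held 0, and these members moved in opposite directions. Among the 40 members with a window, 25 (62.5%) held a core match, against 43.1% of all 27305 windows in the table. The E-box was in 5 of the 40 (12.5%), against 6.46% of all windows. All windows go beyond the 12774 genes tested, and the 40 include members not tested. Neither share was thus set against a like set of genes. Of the members lower in the HER2-mutant line, 11 of 19 (57.9%) held a core match, and of those higher, 6 of 10 (60%) did. Of those not called between the lines, 5 of 6 (83.3%) did. A match describes letters in these windows, not binding.

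All 7 markers listed for basal breast epithelium with a probe set were above background in each group. They include CDH1 and EPCAM, which are not particular to basal cells. Of the 7, 3 were called higher in the HER2-mutant than in the PIK3CA-mutant line and 3 lower, against 30% and 29.4% of all genes. All 5 endothelial markers, 4 of 5 blood markers and 6 of 10 luminal markers were near background in each group. Of 7 fibroblast markers, 4 were near background in each group. Some markers of other cell types were above background and moved with the groups. The 4 such luminal markers were KRT8 (2.32 in the HER2-mutant minus the PIK3CA-mutant line), KRT19 (1.25), GATA3 (0.93) and KRT18 (-2.32). The fibroblast marker DCN read 10.70 in the HER2-mutant line, 7.07 in the PIK3CA-mutant line and 8.03 in the co-culture, and the log2 of the summed fibroblast signal was 10.94 to 11.31, 8.98 to 9.47 and 9.61 to 9.80. COL1A2 was above background in each group and was not called between the lines, and LUM, PDGFRB and THY1 were near background. The blood marker CD14 was above background in the PIK3CA-mutant line and the co-culture, at 7.51 and 7.78. Arrays had medians of 6.41 to 6.49 on the log2 scale and 95th percentiles of negative controls of 6.32 to 7.12. A member whose group mean lay below the group's average of that percentile is called near background, and its fold is given as a lower limit where the other group's mean exceeds the dim group's background, or else not at all. The cell cycle markers moved with the groups: 10 of 10 were lower in the HER2-mutant than in the PIK3CA-mutant line, with a median difference of -5.12 as fitted. In the co-culture, 10 of 10 were above the level of HER2-mutant cells alone. Of the 10, 5 were above background in each group. CCNB1, CDK1, BUB1, CCNA2 and RRM2 were near background in the HER2-mutant line, so the size of that median rests partly on signal near background. Against the PIK3CA-mutant line, 8 were lower in the co-culture and 1 higher, with a median of -0.66. The log2 of their summed signal was 10.20 to 10.44 in the HER2-mutant line, 15.51 to 15.66 in the PIK3CA-mutant line and 14.88 to 15.18 in the co-culture. The part of these markers in the results that follow was not tested.

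Between the single cultures, most steps of glycolysis from HK1 to lactate were lower in the HER2-mutant line. The 3 transporters tested among the members, HK2 and PDK2 were higher. With limma and an adjusted p under 0.05, 13 of 39 members were higher in the HER2-mutant line, 19 were lower and 7 were not called. Over all genes tested, 59.4% were called, 30% higher and 29.4% lower, so being called was frequent in general. By at least 1 on the log2 scale as fitted, 7 members were higher and 7 lower, against 21.2% of all genes in either direction. Of the 7 higher, SLC2A3 is near background in the PIK3CA-mutant line and its lower limit is under 1, which leaves 6. The median difference was -0.22 over the members and 0.05 over all genes. The 4 arrays of each line did not overlap for 31 of 39 members, against 52.9% of all genes.

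**Figure D1:**
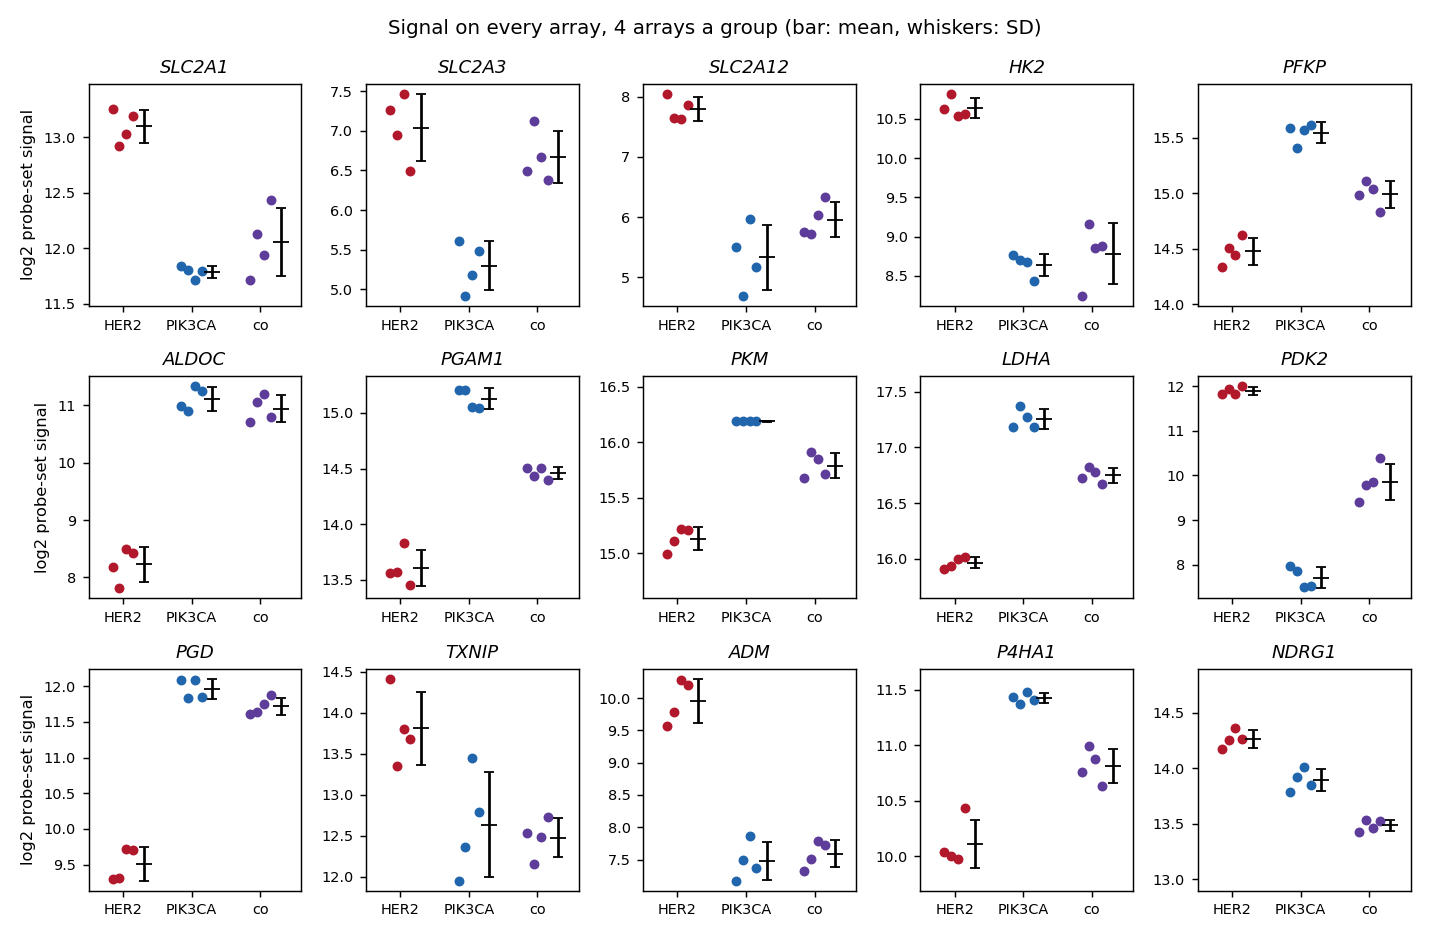
Log2 probe-set signal on each array (points) for 15 members, in the HER2-mutant line (HER2), the PIK3CA-mutant line (PIK3CA) and the co-culture (co), with bars at the group mean and whiskers of 1 SD (n = 4). Vertical axes differ between panels, and the co-culture points lie between the lines for PFKP, PGAM1, PKM, LDHA, PDK2 and P4HA1 and below both for NDRG1.

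**Figure D2:**
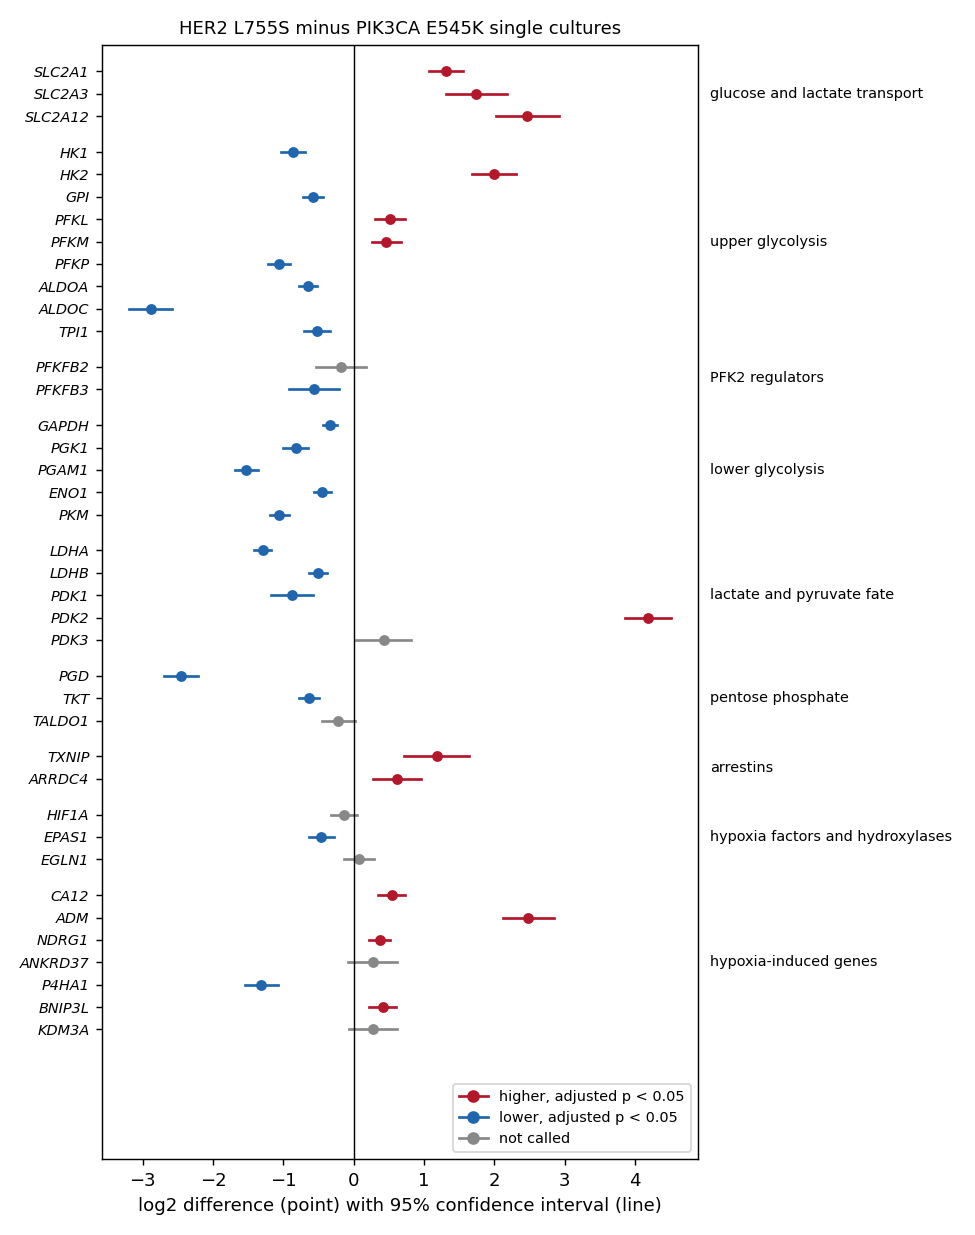
Log2 difference of the HER2-mutant minus the PIK3CA-mutant single cultures for the 39 members tested (points), with 95% confidence intervals (lines), coloured by call. PDK2 lies farthest to the right at 4.18 and ALDOC farthest to the left at -2.89, and the points of SLC2A3, SLC2A12, PFKFB3, PDK3 and ANKRD37 rest on signal near background in at least 1 group.

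All 3 glucose transporters tested among the members were higher in the HER2-mutant line. Among 7 other hexose transporters, given below, 3 were higher and 2 lower. SLC2A1 encodes GLUT1, the basal glucose transporter of most epithelia. Its log2 signal was 12.92, 13.03, 13.19 and 13.25 in the HER2-mutant line, 11.71, 11.80, 11.80 and 11.85 in the PIK3CA-mutant line, and 11.72, 11.94, 12.13 and 12.44 in the co-culture. The lines did not overlap and differed by 1.31 ± 0.12 (SE, n = 4 each), or 2.48-fold, with an adjusted p of 1.19e-09. The co-culture arrays overlapped the PIK3CA-mutant ones and lay below every HER2-mutant one. SLC2A3, the high-affinity transporter GLUT3, gave 6.49, 6.94, 7.26 and 7.47 in the HER2-mutant line, 4.92, 5.18, 5.48 and 5.61 in the PIK3CA-mutant line, and 6.38, 6.49, 6.67 and 7.13 in the co-culture. The PIK3CA-mutant line was near background, and SLC2A3 was at least 1.6-fold higher in the HER2-mutant line (adjusted p = 1.79e-07) and at least 1.24-fold higher in the co-culture (adjusted p = 3.31e-05). SLC2A3 and its near-identical neighbour SLC2A14 could share signal, and SLC2A14 was also higher in the HER2-mutant line, at least 11.3-fold. SLC2A12, or GLUT12, gave 7.62, 7.64, 7.87 and 8.05 in the HER2-mutant line, 4.69, 5.16, 5.50 and 5.97 in the PIK3CA-mutant line, and 5.72, 5.75, 6.04 and 6.33 in the co-culture. Its mean was above background in the HER2-mutant line alone, at least 2.71-fold over the PIK3CA-mutant line (adjusted p = 8.78e-10) and at least 2.41-fold over the co-culture (adjusted p = 1.7e-07).

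The hexokinases moved in opposite directions. HK2, the inducible hexokinase bound to mitochondria, gave 10.54, 10.57, 10.63 and 10.82 in the HER2-mutant line, 8.44, 8.67, 8.70 and 8.76 in the PIK3CA-mutant line, and 8.25, 8.85, 8.88 and 9.16 in the co-culture. The lines differed by 2.00 ± 0.15 (3.99-fold, adjusted p = 8.14e-11), and the co-culture spanned the PIK3CA-mutant arrays. HK1, the form found in most tissues, was 12.20 ± 0.13 (SD, n = 4) in the HER2-mutant and 13.06 ± 0.04 in the PIK3CA-mutant line, a difference of -0.86 (adjusted p = 3.25e-09). GPI, the isomerase of the next step, was also lower, with a difference of -0.58 ± 0.07 (adjusted p = 1.17e-07).

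The phosphofructokinases, which catalyse the committed step, were also split. PFKP, the platelet form, gave 14.33, 14.44, 14.51 and 14.62 in the HER2-mutant line, 15.41, 15.57, 15.59 and 15.62 in the PIK3CA-mutant line, and 14.83, 14.98, 15.04 and 15.11 in the co-culture. The 3 groups were fully separate, with the co-culture in between, and the lines differed by -1.07 ± 0.08 (adjusted p = 2.45e-11). In the HER2-mutant line the liver form PFKL was higher by 0.52 ± 0.10 (adjusted p = 0.000173), and the muscle form PFKM by 0.46 ± 0.10 (adjusted p = 0.000262). Of the enzymes that set the level of the activator of phosphofructokinase, PFKFB2 was not called (-0.18 ± 0.17, adjusted p = 0.393). PFKFB3 passed the test (adjusted p = 0.00675), with 6.11 ± 0.31 in the HER2-mutant and 6.67 ± 0.09 in the PIK3CA-mutant line. Both means lay below the HER2-mutant background of 6.96, so no difference in level can be given, although the call is among the 19.

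ALDOC, the brain form of aldolase, had the largest decrease among the members. It gave 7.81, 8.19, 8.43 and 8.49 in the HER2-mutant line, 10.89, 10.996, 11.25 and 11.33 in the PIK3CA-mutant line, and 10.71, 10.80, 11.06 and 11.20 in the co-culture. The lines differed by -2.89 ± 0.15 (7.4-fold, adjusted p = 6.15e-14), and the co-culture overlapped the PIK3CA-mutant arrays. ALDOA, the aldolase of most tissues, differed by -0.65 ± 0.06 (adjusted p = 1.65e-09), and TPI1, which interconverts the triose phosphates, by -0.52 ± 0.09 (adjusted p = 1.52e-05).

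All 5 enzymes tested between triose phosphate and pyruvate were lower in the HER2-mutant line. PGAM1, the phosphoglycerate mutase, gave 13.45, 13.56, 13.57 and 13.83 in the HER2-mutant line, 15.05, 15.05, 15.21 and 15.21 in the PIK3CA-mutant line, and 14.40, 14.43, 14.50 and 14.51 in the co-culture. PKM, the pyruvate kinase of dividing cells and muscle, gave 14.997, 15.11, 15.21 and 15.21 in the HER2-mutant line, 16.19 on all 4 PIK3CA-mutant arrays, and 15.68, 15.71, 15.85 and 15.91 in the co-culture. For both, the groups were fully separate with the co-culture in between, and the lines differed by -1.52 ± 0.08 for PGAM1 (adjusted p = 6.27e-14) and by -1.05 ± 0.07 for PKM (adjusted p = 2.3e-12). PGK1, the phosphoglycerate kinase, differed by -0.83 ± 0.08, ENO1, the enolase of most tissues, by -0.45 ± 0.06, and GAPDH, often used as a reference gene, by -0.34 ± 0.05. GAPDH read 17.46 in the HER2-mutant and 17.80 in the PIK3CA-mutant line, close to the highest signal on any array, 18.451 to 18.601, where an array can compress differences. GAPDH, PGK1, PGAM1, ENO1, TPI1, ALDOA, PKM and LDHA have near-identical copies elsewhere in the genome, and the share of signal from them is uncertain.

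Both lactate dehydrogenase subunits were lower in the HER2-mutant line. LDHA, the subunit associated with making lactate, gave 15.91, 15.94, 16.00 and 16.01 in the HER2-mutant line, 17.18, 17.18, 17.27 and 17.38 in the PIK3CA-mutant line, and 16.67, 16.72, 16.78 and 16.82 in the co-culture. The groups were fully separate, and the lines differed by -1.29 ± 0.06 (2.45-fold, adjusted p = 5.97e-15). LDHB, the other main subunit, differed by -0.51 ± 0.06 (adjusted p = 3e-07).

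The kinases that inhibit pyruvate dehydrogenase went different ways. PDK2 gave 11.81, 11.82, 11.94 and 11.997 in the HER2-mutant line, 7.49, 7.52, 7.86 and 7.97 in the PIK3CA-mutant line, and 9.41, 9.79, 9.85 and 10.38 in the co-culture. The 3 groups were fully separate, and the lines differed by 4.18 ± 0.16, or 18.2-fold (adjusted p = 2.35e-16), the widest gap among the members. PDK1, the form induced by hypoxia, was lower in the HER2-mutant line, 8.71 ± 0.18 against 9.59 ± 0.12 (adjusted p = 1.3e-05). PDK3 was near background in both lines and was not called (0.42 ± 0.19, adjusted p = 0.0537).

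In the pentose phosphate pathway, which makes NADPH and ribose, PGD and TKT were lower in the HER2-mutant line. PGD, a dehydrogenase of the NADPH-making branch, gave 9.29, 9.32, 9.71 and 9.73 in the HER2-mutant line, 11.83, 11.85, 12.09 and 12.09 in the PIK3CA-mutant line, and 11.60, 11.64, 11.75 and 11.87 in the co-culture. The lines differed by -2.45 ± 0.12 (5.47-fold, adjusted p = 1.25e-14), and the co-culture overlapped the PIK3CA-mutant arrays. TKT, the transketolase, differed by -0.64 ± 0.07 (adjusted p = 1.61e-08), and the transaldolase TALDO1 was not called (-0.22 ± 0.11, adjusted p = 0.101).

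TXNIP and ARRDC4, arrestins that MondoA induces when glucose is plentiful and that restrain glucose uptake, were higher in the HER2-mutant line. TXNIP gave 13.35, 13.69, 13.80 and 14.42 in the HER2-mutant line, 11.95, 12.36, 12.79 and 13.44 in the PIK3CA-mutant line, and 12.15, 12.49, 12.54 and 12.73 in the co-culture. The lines overlapped on 1 array each, and their means differed by 1.18 ± 0.22 (2.26-fold, adjusted p = 8.43e-05). ARRDC4 differed by 0.61 ± 0.16 (adjusted p = 0.00265).

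Of the oxygen-sensing factors and hydroxylases tested, EPAS1 alone was called between the lines. HIF1A, the oxygen-regulated subunit controlled mostly at the protein level, read 14.97 ± 0.14 in the HER2-mutant and 15.11 ± 0.17 in the PIK3CA-mutant line and was not called (adjusted p = 0.179). Its relative EPAS1 was lower in the HER2-mutant line by -0.46 ± 0.09 (adjusted p = 7.05e-05). EGLN1, the hydroxylase that marks both for destruction, was not called (0.08 ± 0.10, adjusted p = 0.524). EGLN3 had group means of 3.32, 4.58 and 3.63 in the HER2-mutant, PIK3CA-mutant and co-cultures, against a filter level of 4.29 to 4.45, which 3 PIK3CA-mutant arrays alone exceeded.

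The genes induced by hypoxia did not move as a group. ADM, which encodes the vasodilator peptide adrenomedullin, gave 9.56, 9.79, 10.20 and 10.29 in the HER2-mutant line, 7.17, 7.38, 7.49 and 7.87 in the PIK3CA-mutant line, and 7.33, 7.51, 7.72 and 7.79 in the co-culture. The lines differed by 2.48 ± 0.17 (5.59-fold, adjusted p = 1.87e-11), and all co-culture arrays lay within the PIK3CA-mutant range. P4HA1, a collagen prolyl hydroxylase, went the other way, with 9.97, 10.002, 10.04 and 10.44 in the HER2-mutant line, 11.37, 11.41, 11.44 and 11.48 in the PIK3CA-mutant line, and 10.63, 10.76, 10.88 and 10.99 in the co-culture. The 3 groups were separate, with a difference between the lines of -1.31 ± 0.11 (adjusted p = 5.89e-10). NDRG1, a stress-response gene, gave 14.17, 14.25, 14.26 and 14.37 in the HER2-mutant line, 13.79, 13.85, 13.92 and 14.01 in the PIK3CA-mutant line, and 13.43, 13.46, 13.53 and 13.53 in the co-culture, which lay below both lines. The lines differed by 0.37 ± 0.07 (adjusted p = 0.000103). CA12, a carbonic anhydrase of the cell surface, had a HER2-mutant level higher by 0.54 ± 0.09 (adjusted p = 1.88e-05) and the mitophagy receptor BNIP3L by 0.41 ± 0.09 (adjusted p = 0.000608). The histone demethylase KDM3A and ANKRD37 were not called, with differences of 0.27 each and adjusted p of 0.164 and 0.177, and ANKRD37 was near background in all groups.

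The co-culture was next set against each line. These comparisons, and those with the blend that follow, share the co-culture and single-culture arrays and are not independent. In a bulk sample, a change in the share of cells of a line and a change in RNA per cell cannot be told apart. Against the HER2-mutant line, 20 members were higher in the co-culture, 11 lower and 8 not called, against 50.9% of all genes called, 24.9% higher and 26% lower. Arrays did not overlap for 29 of 39 members, against 44.4% of all genes. By at least 1, 2 members were higher and 6 lower, against 14% of all genes in either direction. The increases of at least 1 were in ALDOC (2.71 ± 0.15, adjusted p = 3.48e-13) and PGD (2.21 ± 0.12, adjusted p = 1.64e-13). The decreases of at least 1 were in ADM (-2.37 ± 0.17), PDK2 (-2.04 ± 0.16), HK2 (-1.86 ± 0.15), SLC2A12, TXNIP (-1.34 ± 0.22) and SLC2A1 (-1.04 ± 0.12). The calls of EPAS1 (0.23), HIF1A (0.25) and TPI1 (0.28) were lost without single arrays. For EPAS1 these were HER2-mutant replicates 1, 2 and 4 and co-culture replicates 2 and 3 (adjusted p of 0.0565 to 0.122). For HIF1A they were HER2-mutant replicates 2 and 4 and co-culture replicate 1 (0.0597 to 0.0773), and for TPI1 co-culture replicate 2 (0.0547).

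Against the PIK3CA-mutant line, fewer members were called, with 4 higher in the co-culture, 11 lower and 24 not called. Over all genes 25.6% were called, 11.1% higher and 14.6% lower. Arrays did not overlap for 16 of 39 members, against 28.3% of all genes. The lower members were mostly those of glycolysis, PFKP (-0.56 ± 0.08), ALDOA (-0.30 ± 0.06), TPI1 (-0.24 ± 0.09), PGK1 (-0.33 ± 0.08), PGAM1 (-0.67 ± 0.08), ENO1 (-0.19 ± 0.06), PKM (-0.40 ± 0.07) and LDHA (-0.51 ± 0.06), with CA12 (-0.28 ± 0.09), NDRG1 (-0.41 ± 0.07) and P4HA1 (-0.61 ± 0.11). As fitted, 2 members were higher by at least 1, SLC2A3 and PDK2, against 3.43% of all genes in either direction, and for SLC2A3 the lower limit given above is smaller than that. The higher members were PDK2 (2.15 ± 0.16, 4.43-fold, adjusted p = 1.06e-09), SLC2A3, SLC2A12 and PDK3. SLC2A12 was near background in both groups, and PDK3 was at least 1.36-fold higher than its level near background in the PIK3CA-mutant line (adjusted p = 0.0174). Intervals for members not called were still narrow in places: LDHB differed by -0.00 ± 0.06 (adjusted p = 0.987) and TKT by 0.01 ± 0.07 (adjusted p = 0.97). HK2 (0.14 ± 0.15, adjusted p = 0.566) and ADM (0.11 ± 0.17, adjusted p = 0.711) were also not called.

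Of these calls against the PIK3CA-mutant line, 5 were lost when single arrays were left out. That of TPI1 was lost without any of PIK3CA-mutant replicates 2, 3 and 4 and co-culture replicates 1, 3 and 4 (adjusted p of 0.0557 to 0.147). That of CA12 was lost without PIK3CA-mutant replicates 1 or 4 or co-culture replicates 1 or 2 (0.0558 to 0.109). That of SLC2A12 was lost without PIK3CA-mutant replicates 2 or 4 or co-culture replicates 3 or 4 (0.0783 to 0.16). ENO1 depended on PIK3CA-mutant replicates 2 and 3 and co-culture replicate 2 (0.0583 to 0.0723), and PDK3 on PIK3CA-mutant replicate 2 and co-culture replicate 2 (0.0513 to 0.0551).

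Where the co-culture lay relative to both lines can be put on a scale from 0% at the PIK3CA-mutant mean to 100% at the HER2-mutant mean, on linear signal. It is a description, and members of a group share their arrays. Among 18 members lower in the HER2-mutant line, positions ran from -1.01% to 61%, with a median of 46.1%. LDHA stood at 50.1%, PGAM1 at 56.8% and PKM at 46.7%, whereas ALDOC stood at 13.2% and PGD at 19.2%. Among 11 members higher in the HER2-mutant line, positions ran from -83.4% to 59.9%, with a median of 3.44%. HK2 stood at 3.44%, ADM at 1.76% and PDK2 at 19.98%. Members near background in a line were left out.

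A blend of 75% HER2-mutant and 25% PIK3CA-mutant mean signal served as the level that mixing the single cultures would give if both lines held equal RNA per cell, which is not known. Compared with it, 17 members were higher in the co-culture, 10 lower and 12 not called, against 40.8% of all genes called, 18.5% higher and 22.3% lower. As fitted, by at least 1, 2 were higher and 5 lower, against 6.04% of all genes in either direction. After quantile normalization the split was 12 higher and 12 lower. The higher members were led by ALDOC (1.33 ± 0.13, adjusted p = 3.11e-08) and PGD (1.12 ± 0.10, adjusted p = 7.26e-09). TKT (0.45 ± 0.06), LDHB (0.36 ± 0.06), LDHA (0.34 ± 0.05), PKM (0.31 ± 0.06) and PGAM1 (0.30 ± 0.07) were higher by less. The lower members were led by ADM (-2.04 ± 0.17), PDK2 (-1.65 ± 0.16), HK2 (-1.56 ± 0.15) and TXNIP (-1.12 ± 0.21), and included SLC2A1 (-0.81 ± 0.11), CA12 (-0.70 ± 0.08), NDRG1 (-0.69 ± 0.07), PFKL (-0.65 ± 0.10) and KDM3A (-0.58 ± 0.15). The calls also hold SLC2A12 (lower), near background in all but the HER2-mutant line, and PFKFB3 (higher), near background in the HER2-mutant line, and no size is given for either. SLC2A3 (-0.09 ± 0.20, adjusted p = 0.761) and ARRDC4 (-0.09 ± 0.15, adjusted p = 0.701) were not called.

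The calls of several small differences from the blend were lost when single arrays were left out. The call of P4HA1 (0.25) was lost without any of 10 of the 12 arrays, all but HER2-mutant replicate 4 and co-culture replicate 4 (adjusted p of 0.0512 to 0.179). That of ENO1 (0.13) was lost without HER2-mutant replicates 2 or 4, PIK3CA-mutant replicates 1 or 4 or co-culture replicates 1, 3 or 4 (0.0545 to 0.151). That of HIF1A (0.21) was lost without HER2-mutant replicates 2, 3 or 4 or co-culture replicates 1 or 3 (0.0513 to 0.136). That of PDK1 (0.36) was lost without co-culture replicates 2 or 3 (0.0852 to 0.147), and that of ALDOA (0.16) without co-culture replicate 3 (0.0689).

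**Figure D3:**
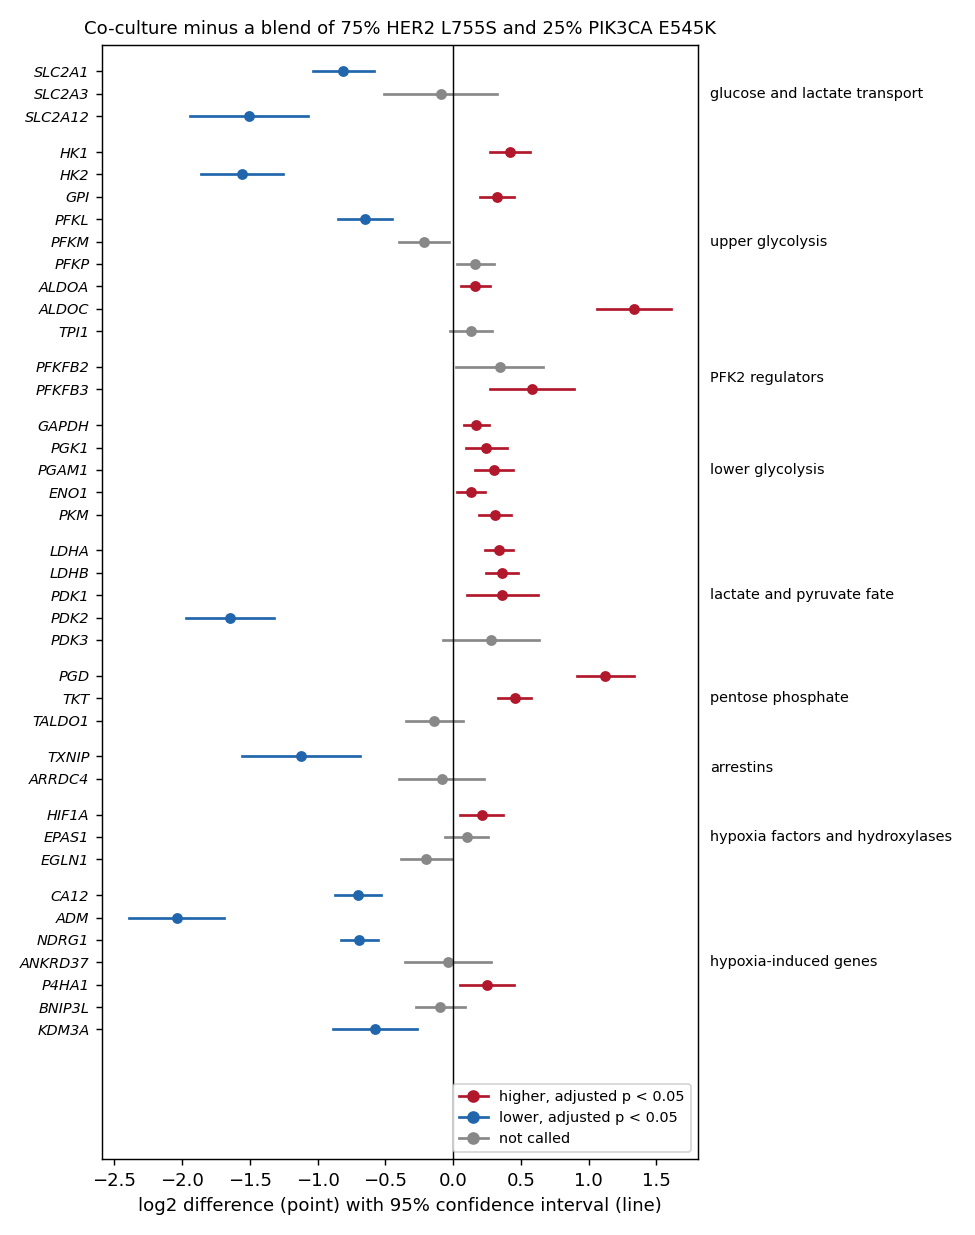
Log2 difference of the co-culture from a blend of 75% HER2-mutant and 25% PIK3CA-mutant signal for the 39 members tested (points), with 95% confidence intervals (lines), coloured by call. ALDOC and PGD lie to the right of 1, and ADM, PDK2, HK2 and TXNIP to the left of -1. The points of SLC2A3, SLC2A12, PFKFB3, PDK3 and ANKRD37 rest on signal near background in at least 1 group.

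A level beyond both lines cannot come from any blend of their single-culture signals. Of the 39 members, 1 was called outside both lines, against 1.86% of all genes, 1.01% above both and 0.845% below both, and 0.29% by at least 1. It was NDRG1, below the nearer line by -0.41 (adjusted p = 0.00181). Without co-culture replicate 4, CA12 was also called, below the nearer line by -0.37 (adjusted p = 0.026).

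Related members, namely enzymes of the same step, transporters, arrestins or hypoxia factors, were set against each other on each array. The ratio of their signals has no meaning as a level, but its difference between groups shows whether they changed unequally. Of 13 pairs, 8 had both members tested. An exact permutation test of 4 against 4 arrays cannot give a two-sided p below 0.0286, and p was adjusted over the 8 ratios of a comparison. Between the lines, 6 ratios passed (adjusted exact p = 0.0381). Of these, PDK1 over PDK3, rests on PDK3, which was near background in both lines, and shows nothing about unequal change. The other 5 passed too when p was adjusted over the 6 ratios whose members were above background (adjusted exact p = 0.0343), and their arrays did not overlap between the lines. HK2 over HK1 was higher by 2.86 in the HER2-mutant line and ALDOA over ALDOC by 2.24, while PFKP over PFKL differed by -1.58, LDHA over LDHB by -0.79 and EPAS1 over HIF1A by -0.33. TXNIP over ARRDC4 (0.57, adjusted exact p = 0.229) did not pass, and SLC2A1 over SLC2A3 could not be read, with SLC2A3 near background in the PIK3CA-mutant line.

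In the co-culture, HK2 over HK1 lay far from the HER2-mutant line (-2.55, adjusted exact p = 0.0457) and was not separated from the PIK3CA-mutant line (0.31, adjusted exact p = 0.261). The ALDOA over ALDOC ratio was similar, at -2.36 (adjusted exact p = 0.0457) and -0.12 (adjusted exact p = 0.486). LDHA over LDHB differed by 0.28 from the HER2-mutant line and by -0.51 from the PIK3CA-mutant line (adjusted exact p = 0.0457 for both), and PFKP over PFKL by 1.28 and -0.31 with the same adjusted p. In all, 5 of 8 ratios passed against the HER2-mutant line, all of members above background in both groups. Without any 1 of the 4 HER2-mutant arrays 0 passed, while without any 1 co-culture array 5 passed. Only ratios at the smallest p can pass, and only if enough of the 8 reach it together. A single ratio leaving that p can thus turn 5 into 0, here and against the PIK3CA-mutant line. Such a count does not show which ratios depend on an array. Against the PIK3CA-mutant line 5 of 8 passed, but 2 of these, SLC2A1 over SLC2A3 and PDK1 over PDK3, rest on members near background there. The other 3 did not pass when p was adjusted over the 6 ratios above background (adjusted exact p = 0.0571), and without any 1 array of either group 0 of the 8 passed.

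**Figure D4:**
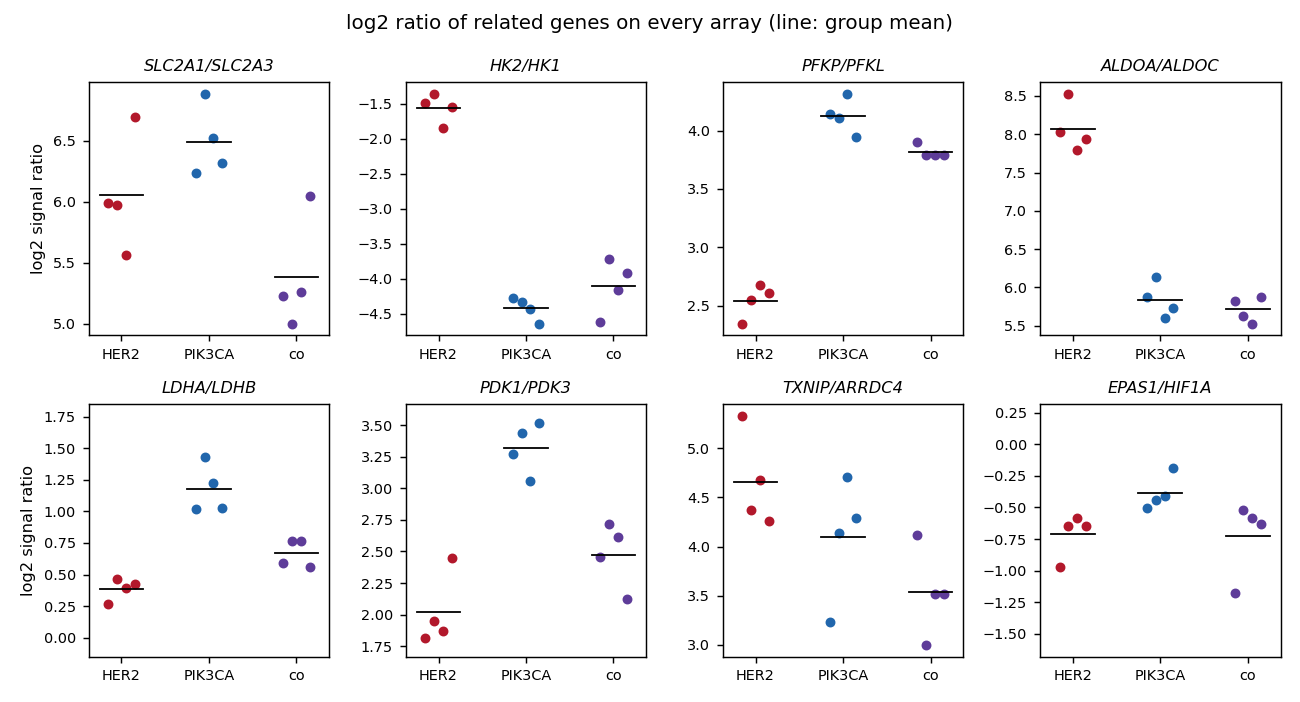
Log2 ratio of 8 pairs of related members on every array (points), by culture, with the group mean as a line. The HER2-mutant arrays stand apart from the PIK3CA-mutant arrays for HK2/HK1, PFKP/PFKL, ALDOA/ALDOC, LDHA/LDHB and EPAS1/HIF1A. The co-culture arrays overlap the PIK3CA-mutant ones for HK2/HK1, ALDOA/ALDOC and TXNIP/ARRDC4. SLC2A1/SLC2A3 and PDK1/PDK3 hold members near background.

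Other genes of these pathways, 93 of them tested, were called higher in the HER2-mutant line for 31 and lower for 38, with a median of 0.01. That is 74.2% called, against 59.4% of all genes, 30% higher and 29.4% lower, and the counts of each list that follow are to be read against these shares. Among 7 other hexose transporters, 3 were higher and 2 lower. They were led by SLC2A14 and the fructose transporter SLC2A5 (2.87, adjusted p = 2.08e-10) on the high side, and by SLC2A9 (-2.84, adjusted p = 1.39e-14), which carries urate, and SLC2A6 (-2.25, adjusted p = 2.34e-12) on the low side. SLC2A5 was at least 6.99-fold lower in the co-culture, where it was near background, than in the HER2-mutant line. Of 13 other enzymes of glycolysis and gluconeogenesis, 0 were higher and 5 lower, 38.5% called against 59.4% of all genes. Of these 5, PGAM4 and PCK2 were near background in all groups. The others were TIGAR (-1.87, adjusted p = 1.07e-11), which lowers the activator of phosphofructokinase, pyruvate carboxylase PC (-1.14, adjusted p = 2.44e-06) and the glucose phosphatase G6PC3 (-0.87, adjusted p = 7.43e-09).

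Of 7 other pentose phosphate enzymes, 1 was higher and 4 lower, of which RPIA was near background in all groups. PRPS1, which makes the ribose donor for nucleotides, was lower by -2.24 (adjusted p = 2.58e-15) and the epimerase RPE by -0.69 (adjusted p = 3.25e-06), whereas H6PD, which works in the endoplasmic reticulum, was higher by 1.62 (adjusted p = 8.11e-09). Of 10 genes of pyruvate entry into mitochondria, 4 were higher and 5 lower. PDPR, a regulator of pyruvate dehydrogenase phosphatase, was higher by 1.28 (adjusted p = 6.28e-09), and the pyruvate dehydrogenase subunits DLAT (-0.93, adjusted p = 2.09e-06) and DLD (-0.54, adjusted p = 0.000466) were lower. PDK4, a further kinase of that enzyme, was near background in all groups. Of 12 glycogen genes, 4 were higher and 5 lower, led by the phosphorylase PYGL (-2.60, adjusted p = 2.69e-17) and PGM1 (-1.18, adjusted p = 7.13e-11), which links glycogen to glycolysis. On the high side, UGP2, which makes the glycogen precursor, differed by 0.69 (adjusted p = 8.02e-06) and the phosphatase subunit PPP1R3D by 0.53 (adjusted p = 0.0102).

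Of 12 other regulators of the hypoxia-inducible factors, 8 were higher in the HER2-mutant line and 3 lower, or 66.7% and 25%, against 30% and 29.4% of all genes. CITED2, which competes with them for the coactivators, was higher by 3.86 (adjusted p = 4.37e-18), and the co-culture lay 1.77 above the PIK3CA-mutant line (adjusted p = 1.89e-10). The ubiquitin ligase SIAH2 was higher by 1.06 (adjusted p = 4.96e-07), the coactivator CREBBP by 1.04 (adjusted p = 4.05e-10) and ARNT, the constant partner of the factors, by 0.96 (adjusted p = 2.68e-08). Of 26 other hypoxia-induced genes, 8 were higher and 12 lower. HILPDA, BHLHE41 and RORA among the higher and RAB20 among the lower were near background in both lines. The angiogenic factor VEGFA differed by -2.62 (adjusted p = 1.78e-13) and the repressor BHLHE40 by -3.34 (adjusted p = 3.69e-15), and neither was called when the co-culture was set against PIK3CA-mutant cells alone. ANGPTL4, a lipase inhibitor, was at least 2.88-fold higher in the PIK3CA-mutant line than in the HER2-mutant line and at least 3.89-fold higher than in the co-culture, where it was near background as well. ZNF395 was at least 4.41-fold higher in the HER2-mutant line. Of 6 MondoA and ChREBP factors and targets, 3 were higher and 2 lower, with MLXIP, which encodes MondoA, at 2.04 (adjusted p = 4.46e-10), its partner MLX at -0.88 (adjusted p = 3.33e-07), the arrestin ARRDC3 at 1.90 (adjusted p = 2.97e-05) and KLF10 at -1.68 (adjusted p = 7.64e-09).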

How the data were processed

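Whole-transcript arrays measured 12 cultures, 4 per group, and groups were taken from the labels, with 0 columns unassigned. The authors deposited 1 log2 signal per probe set and array. Per the submitters' processing notes, they used the Transcriptome Analysis Console. Its version and the normalization method are not given in the sources used here. The values were used as they stand, and the number of arrays limits the precision.

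Of 17709 probe sets named for 1 gene, the brightest was kept for each of 20 genes with several. A gene was tested if at least 4 arrays had it above their 30th percentile of signal. A model with 3 groups was fitted to all 12 arrays in limma 3.58.1 (R 4.3.3), with a trend of the spread on signal, and two-sided p was adjusted by Benjamini-Hochberg over all genes tested. For a gene called outside both lines, the p was the larger of both contrasts. Near background means below the 95th percentile of 612 negative controls. Lower limits set the brighter mean against the dim group's level, taken on each array as the higher of background and signal. The blend was formed on the linear scale, with a standard error by the delta method.

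Members on every array are those that differed by at least 1 between the lines or from the blend, or lay outside both lines. Up to 4 genes of each other list, by size of difference among those past the threshold, were named. Promoter windows came from RefSeq (GRCh38.p14), which held 40 of the 45 members. The method was tested on simulated data. Alternatives were scaling, filters, probe set choice, the fit, the share in the blend, a replicate block and leaving out arrays. The members and lists were chosen with earlier results of these data known.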

Additional observations from a re-analysis of the deposited data

Results flagged for a closer look

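In 4 of 123 sets of 4 arrays, 1 array lay far from the other 3 by Dixon's criterion, which chance gives in about 1 in 20 sets. PFKFB3 read 6.50 in co-culture replicate 1, against 6.93 to 7.01 in the other co-cultures. PDK3 read 6.62 in PIK3CA-mutant replicate 3, against 6.10 to 6.17 in the others. EGLN3, which was not tested, read 3.34 in co-culture replicate 1, against 3.72 to 3.73. P4HA1 read 10.44 in HER2-mutant replicate 4, against 9.97 to 10.04. These values stayed in every result given above.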

How the results depend on the processing

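With 4 arrays a group and signals near background for SLC2A12, SLC2A3, PDK3, PFKFB3 and ANKRD37, small differences of those members are limited by signal. Between the lines, 32 to 34 members were called under each alternative but 1, a test against a difference of 0.5 in log2 (the margin), and no difference changed sign. With that margin, 18 were called between the lines, 12 for the co-culture against the HER2-mutant line, 2 against the PIK3CA-mutant line, 8 against the blend and 0 outside both, because only larger differences can pass it. With a blend of 50%, 17 were called, 7 higher and 10 lower. Leaving out each array in turn gave 1 to 2 members outside both lines, the second being CA12. For the paralog ratios it gave 5 to 7 between the lines, 0 to 5 for the co-culture against the HER2-mutant line and 0 to 5 against the PIK3CA-mutant line. As said above, ratios at the smallest p pass or fail together. Restricted to members above background, an alternative chosen after seeing the data, 0 of 6 ratios passed against the PIK3CA-mutant line, since p was adjusted over fewer ratios at the smallest p. NDRG1 stayed outside both lines under each alternative but the margin, with adjusted p up to 0.0491 when the spread was not modelled with signal. Same-numbered arrays did not deviate together over all genes (correlations of -0.035 to 0.061, 0 of 12 above 0.1), so no pairing by number was seen. A shared start or harvest with effects on few genes, or removed by the normalization, would not show there. With the replicate number as a block, 33, 31, 16, 26 and 1 members were called in the 5 comparisons, in the order given for the margin.

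Values that changed sign were small, and the cause was not tested. Leaving out each array in turn, the difference of the co-culture from the HER2-mutant line ran from -0.185 to 0.018 for ANKRD37, from -0.138 to 0.002 for TALDO1 and from -0.007 to 0.292 for PDK3. From the PIK3CA-mutant line it ran from -0.047 to 0.027 for LDHB, from -0.011 to 0.026 for TKT and from -0.387 to 0.11 for TXNIP, and TKT became -0.039 after quantile normalization and -0.023 after median centring. From the blend it ran from -0.122 to 0.054 for ANKRD37, from -0.26 to 0.036 for SLC2A3 and from -0.176 to 0.089 for ARRDC4. None of these was a called difference. With a blend of 60%, SLC2A3 became 0.104 and PFKP -0.012. With a blend of 50%, SLC2A3 became 0.252, ARRDC4 0.059, ANKRD37 0.026 and BNIP3L 0.005, and PFKP became -0.117, ALDOA -0.007, TPI1 -0.004, PGAM1 -0.098, LDHA -0.001, EPAS1 -0.019 and P4HA1 -0.098. Of these, ALDOA, PGAM1, LDHA and P4HA1 had been called higher than the 75% blend.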

Other observations

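Of the 93 other pathway genes tested, 5 (5.38%) were called outside both lines in the co-culture, 2 above and 3 below, against 1.86% of all genes, 1.01% above and 0.845% below. They are named here because of that result. UGP2 and GYS1, which make the glycogen precursor and glycogen itself, were below both. UGP2 read 9.82 ± 0.14 (SD, n = 4) in the co-culture, 10.25 ± 0.14 in the PIK3CA-mutant and 10.95 ± 0.12 in the HER2-mutant line (limma adjusted p = 0.0338). GYS1 read 11.57 ± 0.10, 11.93 ± 0.04 and 12.18 ± 0.12 in that order (limma adjusted p = 0.0289). PPP1R3B, which brings the phosphatase to glycogen, was above both at 7.38 ± 0.44, with both lines near background (limma adjusted p = 0.0109). STC2, a secreted glycoprotein, was above both at 9.37 ± 0.37, against 8.49 ± 0.21 in the PIK3CA-mutant line, with the HER2-mutant line near background (limma adjusted p = 0.00656). SLC2A5 was also called below both (limma adjusted p = 0.029), but its co-culture signal of 5.52 ± 0.64 and the PIK3CA-mutant mean of 6.47 both lay under the co-culture background of 6.53, so a level below the PIK3CA-mutant line was not measured.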
